A study of Mus musculus with 4 samples.

Results

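The genes described here are 6 receptor subunits of the inhibitory transmitter GABA: Gabrb1 and Gabrb2, Gabrg1 and Gabrg3, and Gabbr1 and Gabbr2. They were chosen by name, out of 21 GABA receptor subunit genes with a feature. All 6 were among the 45706 features of the count files, and all 6 passed the filter on low counts, which left 11548 genes. Each was followed through the 13 clusters of nuclei that the authors had named, in each of 4 libraries.

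The libraries held nuclei sorted from the dentate gyrus of young adult CAGfloxStop-Sun1/sfGFP mice with a tamoxifen-inducible Cre, on a C57Bl/6J background. In these mice tamoxifen starts a green nuclear label in stem cells and progenitors that their progeny keep. The 4 libraries, w1, w2, w4 and w8, are named for the weeks between tamoxifen and dissection (1, 2, 4 or 8), and each was 1 pool of the left dentate gyri of 4 mice of both sexes, with no untreated group. The clusters followed granule cell production from radial glia-like stem cells (RGL) through progenitors (NPC), neuroblasts (NB1, NB2), immature granule cells (GCimm1, GCimm2) and young granule cells (GCyoung) to mature granule cells (GCmat1, GCmat2). Astrocytes (Astro), oligodendrocyte precursors (OPC), oligodendrocytes (Oligo) and a small cluster labelled pericytes (Peri) lay beside this path.

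GABA acts on 2 kinds of receptor. GABA-A receptors are chloride channels built of 5 subunits, most often alpha and beta subunits with a gamma or a delta subunit. The beta subunits share the transmitter site with the alpha subunits and carry sequences that guide assembly and surface delivery, whereas the gamma subunits bring receptors to synapses and form part of the benzodiazepine site. GABA-B receptors are G protein-coupled and work as a dimer of the Gabbr1 product, which binds GABA, and the Gabbr2 product, which couples to the G protein and is needed for the dimer to reach the surface. In newborn granule cells GABA is the first transmitter received, and it depolarises the cell before it becomes inhibitory. RGL also sense GABA, released by interneurons nearby.

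On GRCm38 the GABA-A genes lie in clusters with other subunits. Gabrg1 (ENSMUSG00000001260, chromosome 5, 70751047 to 70842617, minus strand) and Gabrb1 (ENSMUSG00000029212, chromosome 5, 71658113 to 72149037, plus strand) flank Gabra2 and Gabra4. Gabrb2 (ENSMUSG00000007653, chromosome 11, 42419757 to 42629028, plus strand) lies beside Gabra6. Gabrg3 (ENSMUSG00000055026, chromosome 7, 56716465 to 57387188, minus strand) lies beside Gabra5. The GABA-B genes are apart, Gabbr1 (ENSMUSG00000024462) on chromosome 17 from 37045966 to 37075067 on the plus strand and Gabbr2 (ENSMUSG00000039809) on chromosome 4 from 46662305 to 46991873 on the minus strand. Gene bodies ran from 29.1 kb for Gabbr1 to 671 kb for Gabrg3, and UMIs were counted over exons and introns. Gabrb1 shares 196 bp at its start with Gabra4 on the opposite strand, and the pseudogenes within Gabrb1 and Gabrg3 had 0 to 200 UMIs in all.

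The 250 bases before the annotated start are shown for 3 members with different courses in these nuclei: Gabbr2 and Gabrb2, which were low in RGL and high in granule cells, and Gabrg1, which was highest in astrocytes and OPC. The sequences are RefSeq's on GRCm38.p6, read along the strand of the gene, and for Gabrb2 the first of 3 annotated starts was taken. They are chr4:46991715-46991964 on the minus strand for Gabbr2, chr11:42420190-42420439 on the plus strand for Gabrb2 and chr5:70842618-70842867 on the minus strand for Gabrg1. For Gabbr2 and Gabrb2 the RefSeq start lies inside the gene bounds given above. The Gabrb2 window is thus wholly, and the Gabbr2 window partly, within those bounds. Capitals mark CANNTG, the E-box pattern of basic helix-loop-helix factors, and TATAAA, searched on both strands. The patterns did not overlap in these windows.
Gabbr2: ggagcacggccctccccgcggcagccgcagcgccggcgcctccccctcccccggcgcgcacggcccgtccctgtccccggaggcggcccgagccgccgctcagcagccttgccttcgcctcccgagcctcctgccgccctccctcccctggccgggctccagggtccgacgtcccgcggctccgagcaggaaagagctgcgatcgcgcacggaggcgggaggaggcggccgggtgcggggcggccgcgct
Gabrb2: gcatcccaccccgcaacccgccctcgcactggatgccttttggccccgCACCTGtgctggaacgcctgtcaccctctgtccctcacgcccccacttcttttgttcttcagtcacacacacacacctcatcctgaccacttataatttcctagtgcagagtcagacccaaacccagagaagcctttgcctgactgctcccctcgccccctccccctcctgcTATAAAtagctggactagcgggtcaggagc
Gabrg1: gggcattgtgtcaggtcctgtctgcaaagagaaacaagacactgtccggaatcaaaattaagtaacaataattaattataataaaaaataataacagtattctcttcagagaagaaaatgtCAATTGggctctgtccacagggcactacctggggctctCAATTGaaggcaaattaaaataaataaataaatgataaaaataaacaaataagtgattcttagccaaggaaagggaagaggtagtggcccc
The Gabbr2 window held neither pattern, and its letters were 80.8% G or C with 37 CG dinucleotides. The Gabrb2 window held 1 CANNTG and a TATAAA that began 30 bases before the start, at 58.8% G or C and 8 CG. The windows of its later annotated starts, not shown, held neither pattern, at 54.0% and 36.8% G or C. The Gabrg1 window held 2 CANNTG, at 35.6% G or C and 1 CG. Among 32851 windows of this length, 66.2% held CANNTG and 12.4% held TATAAA, and the medians were 52.4% G or C and 6 CG. These are descriptions of the letters, and no binding was measured.

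Of 17046 barcodes, 14367 had a cluster and were used. In w4 these were 3831 of 5459 barcodes, since the authors also left out a group of week-4 nuclei, mostly with male expression, as a possible outlier animal, so the w4 values and their sex ratio describe the nuclei that were kept. The kept nuclei gave 13227971 to 28595331 UMIs per library, with a median of 4369 to 7703.5 per nucleus. Astro, OPC, Oligo and NPC were small (67, 131, 45 and 211 nuclei), so their values rest on few UMIs. The marker lists of astrocytes, NPC, OPC and oligodendrocytes (5 genes each) each peaked, gene by gene, in the cluster they name. Of 5 RGL markers, 3 were highest in RGL, 1 in OPC and 1 in Peri. Of 5 mature granule cell markers, 2 were highest in GCyoung and 1 each in GCmat1, GCmat2 and NB1, with a sum of 1855 CPM in GCmat1 and 924.5 in NB1. The cluster labelled Peri held all 7 vascular leptomeningeal genes at their highest, 7474 CPM in sum, against 189.5 for 7 pericyte genes, of which 2 had no UMI, so it is called by its label only. GCyoung, GCmat1 and GCmat2 made up 0.593% and 0.424% of nuclei in w1 and w2 but 63.7% and 95.3% in w4 and w8. Libraries also differed in sex: the GCmat1 nuclei of w8 were 2281 called male and 358 called female, and the GCyoung nuclei of w4 were 302 and 1633. In all, 22 of 14345 barcode sequences occurred in more than 1 library.

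A level is given as CPM, the UMIs of a gene over all UMIs of the same nuclei, times 1e6. Levels of a cluster pool all its nuclei, and library values are given where a library had at least 10 nuclei of it. In tests, UMIs were summed per library and cluster, 38 such sums were fitted by edgeR's quasi-likelihood method on cluster plus library, and a change was called where the fold reached 1.5 and the p adjusted by Benjamini-Hochberg over all 11548 genes was 0.05 or less. The authors defined the clusters on the same expression values, so p-values describe how these clusters differ and are not independent evidence. The libraries are pools of different weeks, so sums do not measure how animals differ, and with 1 pool per week no test between weeks could be made.

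**Figure D1:**
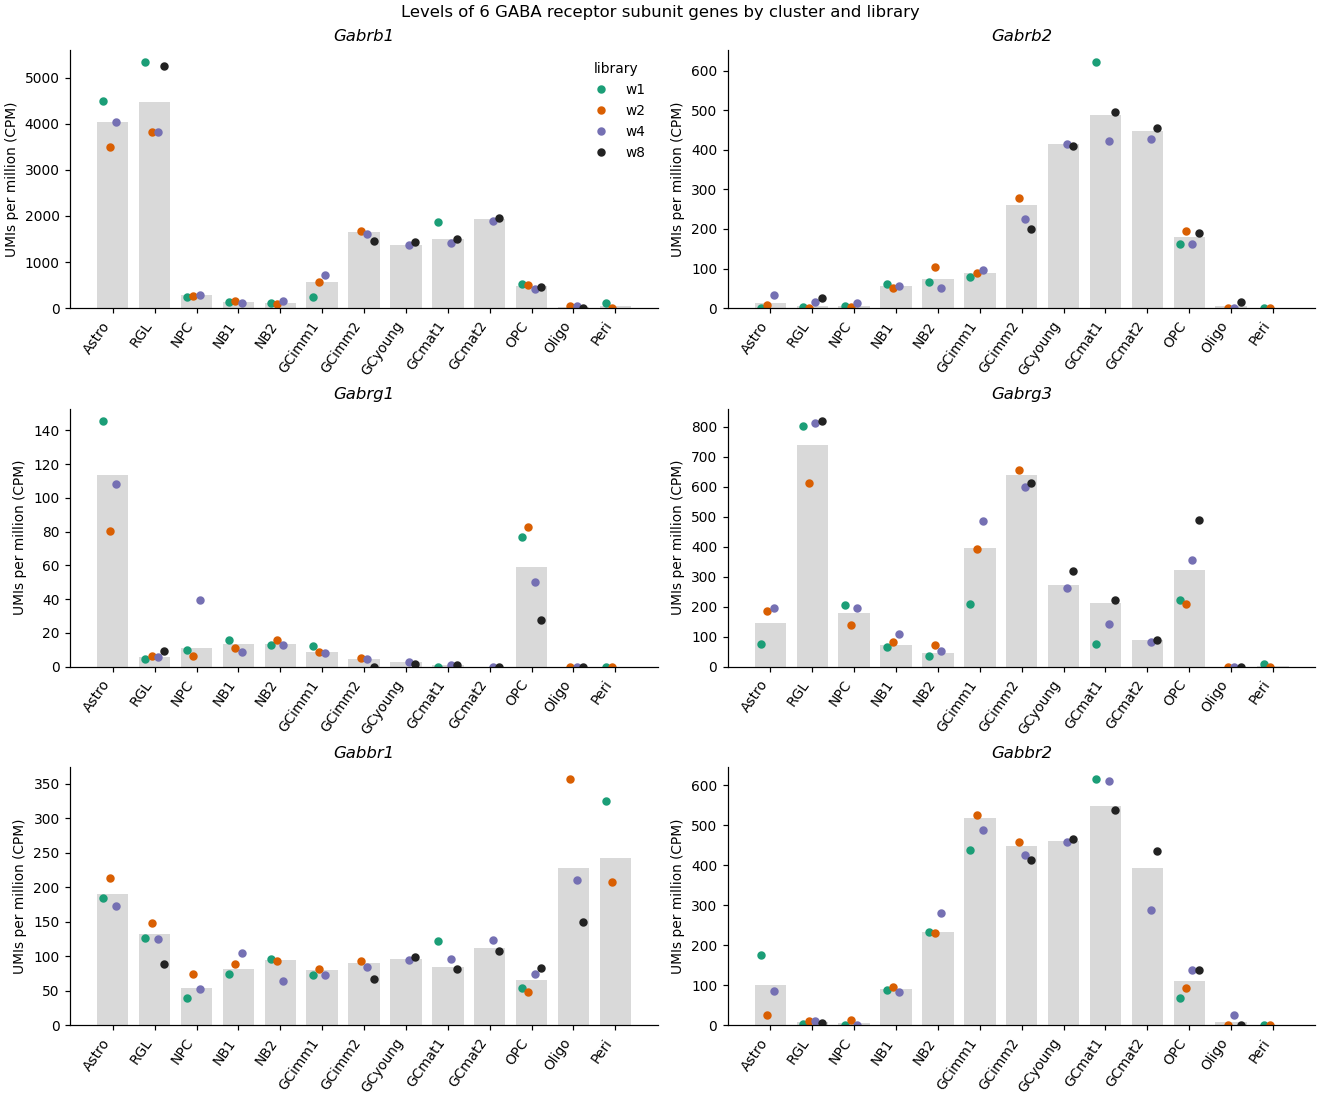
Level in CPM (vertical axis, linear) of each gene in the 13 clusters (horizontal axis). Bars are all nuclei of a cluster and points are single libraries with at least 10 nuclei. Gabrb1 peaks in RGL at 4463, Gabrb2 and Gabbr2 in GCmat1 at 488 and 548, Gabrg1 in Astro at 113, Gabrg3 in RGL at 739, and Gabbr1 in Peri at 243.

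Ordered by pooled level, Gabrb1 went from RGL and Astro, whose library ranges overlapped, through the later granule cells to the neuroblasts, Peri and Oligo. Gabrb2 went from GCmat1 and GCmat2, which overlapped, through GCyoung, GCimm2 and OPC, each apart from the next, and its 5 lowest clusters overlapped each with the next. Gabrg1 was highest in Astro and OPC, which overlapped, and OPC was apart from NB1, the next in order. Gabrg3 was highest in RGL and GCimm2, which overlapped, and these were apart from GCimm1. Gabbr1 was highest in Peri, Oligo and Astro, each overlapping the next, and Astro was apart from RGL. Gabbr2 was highest in GCmat1, apart from GCimm1, and NB1 was apart from Oligo, RGL, NPC and Peri at the low end.

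Gabrb1 had its highest levels in stem cells and astrocytes. In RGL its level was 5332 and 5259 CPM in w1 and w8 and 3818 and 3819 in w2 and w4. In Astro it was 4489, 3488 and 4032 in w1, w2 and w4, and these ranges overlapped. A UMI of Gabrb1 was found in 99.4% of RGL nuclei and in all 67 Astro nuclei. The third cluster in order, GCmat2, stood at 1894 in w4 and 1952 in w8.

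In NPC Gabrb1 was 244, 259 and 288 CPM in w1, w2 and w4, below every RGL library. The fall from RGL to NPC was a log2 change of -4.44 ± 0.30 (SE, edgeR adjusted p = 3.1e-18), seen in 3 of 3 libraries. NB1 stood lower again, at 126, 159 and 105 CPM, and the change from NPC of -0.72 ± 0.29 (edgeR adjusted p = 0.052) missed the threshold, although 6 of 14 other settings called it. NB2 was at 106, 98.3 and 154 CPM, a range that overlapped NB1.

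Gabrb1 then returned. GCimm1 nuclei had 244 CPM in w1, 560.3 in w2 and 716 in w4, all above the neuroblasts but spread over the cohorts. The median pseudo-time of these nuclei was 15.7, 16.9 and 17.1 in the same libraries, and its part in that spread was not tested. From NB1 the rise was 2.07 ± 0.26 (SE, log2, edgeR adjusted p = 1.0e-08). In GCimm2 the level was 1664, 1617 and 1446 CPM in w2, w4 and w8, a further rise of 1.74 ± 0.26 (edgeR adjusted p = 5.1e-07).

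After GCimm2 no change of Gabrb1 passed the test. GCyoung had 1370.4 and 1427 CPM in w4 and w8, below the GCimm2 range in CPM, but the fitted change was 0.06 ± 0.28 (edgeR adjusted p = 0.92). GCmat1 had 1869.9 in w1, 1414 in w4 and 1506 in w8. The GCmat1 value of w1 rests on 17 nuclei. Against RGL, GCmat1 was lower by a log2 change of -1.16 ± 0.24 (edgeR adjusted p = 3.1e-05), in 3 of 3 libraries with both clusters. Gabrb1 was thus read at high levels at both ends of the path and at low levels in NPC and neuroblasts.

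Gabrb2 was nearly unread before the neuroblast stage. RGL had 2.61 and 0.940 CPM in w1 and w2, and 16.2 and 25.5 in w4 and w8, from 38 UMIs in 1387 nuclei. The higher values came from the libraries with many granule cell nuclei, and the part of RNA from those nuclei was not tested. NPC had 6.01, 3.08 and 13.1 CPM in w1, w2 and w4, from 5 UMIs. A UMI was found in 2.52% of RGL and 1.90% of NPC nuclei, against 2.22% of Oligo nuclei (1 of 45), at medians of 4091, 4278 and 4801 UMIs per nucleus, and the interval of the Oligo share (0.0562 to 11.8%) holds the other 2. That interval is too wide to set a background, and the share that free RNA would give was not measured.

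In NB1 Gabrb2 reached 60.8, 51.6 and 56.0 CPM in w1, w2 and w4, above every RGL and NPC library. The rise from NPC was 3.54 ± 0.62 (SE, log2, edgeR adjusted p = 5.0e-06), in 3 of 3 libraries. GCimm1 had 77.9, 88.4 and 95.4 CPM in w1, w2 and w4, just above the NB1 range, a change of 0.72 ± 0.24 (edgeR adjusted p = 0.032). That call was lost in 7 of 14 other settings, among them without w2 (0.58, adjusted p = 0.34), without w4 (0.66, adjusted p = 0.13) and with no library term (0.75, adjusted p = 0.081).

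Gabrb2 rose further in later clusters. GCimm2 had 279, 225 and 199.9 CPM in w2, w4 and w8, a rise of 1.58 ± 0.23 from GCimm1 (edgeR adjusted p = 5.8e-07) that DESeq2 did not call (1.51, adjusted p = 0.063). GCyoung had 415 and 411 CPM in w4 and w8, a further 0.98 ± 0.25 (edgeR adjusted p = 0.0021). Both libraries showed that step, but it was not called without w4 (0.92, adjusted p = 0.16) or with DESeq2 (0.77, adjusted p = 0.44).

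GCmat1 ended at 621, 421 and 495 CPM in w1, w4 and w8, and GCmat2 at 427 and 456 in w4 and w8, with overlapping ranges. From RGL to GCmat1 the change of Gabrb2 was 6.61 ± 0.30 (SE, log2, edgeR adjusted p = 1.8e-26). Without w2 it was 5.92 and without w4 it was 7.66. A UMI of Gabrb2 was found in 92.7% of GCmat1 nuclei, at a median of 8138 UMIs per nucleus against 4091 in RGL. With every nucleus thinned to 2000 UMIs the shares were 57.9% and 1.17%.

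Gabrg1 and Gabrg3 encode gamma subunits. Gabrg1 is known for its expression in glia. In Astro it was read at 146, 80.1 and 108 CPM in w1, w2 and w4, from 38 UMIs in 67 nuclei. In RGL it was 4.78, 6.58, 5.89 and 9.56 CPM in w1, w2, w4 and w8. All RGL libraries lay far below all Astro libraries, with a log2 change of -4.27 ± 0.41 (SE, edgeR adjusted p = 9.5e-12) in 3 of 3 libraries.

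Along the path Gabrg1 stayed low. Pooled levels were 10.9 CPM in NPC, 13.8 in NB1, 13.5 in NB2, 8.62 in GCimm1, 4.68 in GCimm2, 2.77 in GCyoung and 1.13 in GCmat1. No step between neighbouring clusters of the path passed the test. From RGL to GCmat1 the change was -1.44 ± 0.51 (edgeR adjusted p = 0.015), a call that stood without w8 (-2.15) and was lost without w4 (adjusted p = 0.32), in male or in female nuclei alone and after thinning. In GCmat2 there was no UMI in 209 nuclei, which allows a level of up to 1.92 CPM and a share of up to 1.44% of nuclei with a UMI.

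Along the path up to GCimm2, Gabrg3 had a course like that of Gabrb1. Its own peaks were in RGL and in GCimm2. RGL had 803, 612, 811 and 819 CPM in w1, w2, w4 and w8, against 76.6, 187 and 195 in Astro in w1, w2 and w4. The 2 ranges were apart, and RGL was higher by a log2 change of 2.23 ± 0.30 (SE, edgeR adjusted p = 9.8e-08). NPC had 206, 139 and 197 CPM in w1, w2 and w4, below every RGL library. The change was -2.20 ± 0.25 (edgeR adjusted p = 1.7e-10), in 3 of 3 libraries.

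From NPC, Gabrg3 fell on into NB1, where it was 65.4, 83.7 and 107.5 CPM in w1, w2 and w4 (log2 change -0.98 ± 0.27, edgeR adjusted p = 0.0037). This call was lost without w1 (-0.47, adjusted p = 0.32) and in female nuclei alone (-0.20, adjusted p = 0.79). NB2 was lowest of the neuronal clusters at 36.9, 71.7 and 51.2 CPM, but its range overlapped that of NB1 and the step did not pass the test (-0.59 ± 0.28, adjusted p = 0.42).

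In GCimm1 Gabrg3 was 211, 392 and 485 CPM in w1, w2 and w4, the same order of cohorts as for Gabrb1. All 3 lay above the neuroblasts, with a rise from NB1 of 2.23 ± 0.23 (SE, log2, edgeR adjusted p = 3.2e-11). GCimm2 had 657, 599 and 613 CPM in w2, w4 and w8, a change of 0.74 ± 0.21 (edgeR adjusted p = 0.014). This second step was not called without w1 (0.58, under the fold required) or without w2 (0.59, adjusted p = 0.34), with DESeq2 (adjusted p = 0.078) or in male nuclei alone (adjusted p = 0.11).

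Unlike Gabrb1, Gabrg3 then declined. GCyoung had 264 and 321 CPM in w4 and w8, a change of -1.02 ± 0.25 (SE, log2, edgeR adjusted p = 0.0014), which was -1.02 but not called without w4 (adjusted p = 0.14), -0.82 with no library term (adjusted p = 0.066) and -0.61 in male nuclei alone (adjusted p = 0.18). GCmat1 had 76.8, 141 and 223 CPM in w1, w4 and w8, a step of -0.71 ± 0.24 that missed the threshold (adjusted p = 0.091). GCmat2 had 84.0 and 90.3 CPM in w4 and w8 against a GCmat1 range whose lowest value was that of w1. That change of -1.07 ± 0.29 (edgeR adjusted p = 0.011) was lost without w4 (-1.18, adjusted p = 0.095), without w8 (-0.71, adjusted p = 0.64) and with no library term (-0.95, adjusted p = 0.14), and also with DESeq2, after thinning and in female nuclei alone. Both libraries with the 2 clusters showed the lower value in GCmat2. Over the whole path, from RGL to GCmat1, Gabrg3 fell by a log2 change of -1.94 ± 0.22 (edgeR adjusted p = 7.1e-11), in 3 of 3 libraries.

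Gabbr1 was read in every cluster, at pooled levels between 53.6 and 243 CPM. RGL had 127, 148, 125 and 89.2 CPM in w1, w2, w4 and w8, and NPC had 40.1, 73.9 and 52.4 in w1, w2 and w4. The ranges were apart, and the fall was -1.57 ± 0.23 (SE, log2, edgeR adjusted p = 1.7e-07). NB1 had 75.1, 88.8 and 105 CPM, a rise of 0.89 ± 0.24 (edgeR adjusted p = 0.0030) that was not called without w1 (0.73, adjusted p = 0.12) or in female nuclei alone (0.61, adjusted p = 0.27).

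From NB1 to GCmat2 the pooled level of Gabbr1 stayed between 80.4 and 113 CPM, and no step passed both parts of the test. GCimm2 to GCyoung came closest, with 0.52 ± 0.19 at an adjusted p of 0.038 and a fold under 1.5. From RGL to GCmat1 the level was lower in 3 of 3 libraries in CPM, while the fitted change was 0.12 ± 0.16 (edgeR adjusted p = 0.56) and -0.36 with total UMIs as the only scaling. The median log2 change of all genes in this comparison was -0.02 with the TMM factors of the fit and -0.53 with total UMIs.

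Gabbr2 had another course. RGL had 2.61, 10.3, 11.0 and 6.37 CPM in w1, w2, w4 and w8, and NPC had 2.00, 12.3 and 0 in w1, w2 and w4. A UMI was found in 2.88% of RGL and 1.90% of NPC nuclei, beside 2.22% of Oligo nuclei (1 of 45). The Oligo interval (0.0562 to 11.8%) holds both but is too wide to set a background. In NB1 the level was 87.4, 96.9 and 82.9 CPM in w1, w2 and w4, above every RGL and NPC library. The rise was 4.21 ± 0.53 (SE, log2, edgeR adjusted p = 3.2e-09), with 3.50 without w1 and 5.74 without w2.

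NB2 was set apart from NB1 by Gabbr2, at 233, 229.7 and 282 CPM in w1, w2 and w4. It was higher in 3 of 3 libraries, by 1.42 ± 0.22 (SE, log2, edgeR adjusted p = 8.3e-06). NB2 nuclei of w1 were 406 called male and 2 called female, and those of w2 were 13 and 129, so sex differed between the clusters within a library. The change held in male nuclei alone, with 13 and 12 male NB2 nuclei in w2 and w4. It was 1.15 and not called in female nuclei alone, where only w2 had enough NB2 nuclei for a sum.

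GCimm1 had 438, 526 and 488 CPM of Gabbr2 in w1, w2 and w4, a rise from NB1 of 2.52 ± 0.21 (SE, log2, edgeR adjusted p = 3.5e-14). GCimm2 had 459, 426 and 413 CPM in w2, w4 and w8, GCyoung 459 and 467 in w4 and w8, and GCmat1 615, 612 and 539 in w1, w4 and w8. None of the 3 steps between these clusters passed the test, while Gabrb1 and Gabrb2 still rose from GCimm1 to GCimm2. From RGL to GCmat1 the change was 6.68 ± 0.27 (edgeR adjusted p = 2.6e-28).

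GCmat2 had less Gabbr2, at 289.6 and 435 CPM in w4 and w8, below the GCmat1 range. The change of -0.72 ± 0.23 (SE, log2, edgeR adjusted p = 0.043) was lost in 7 of 14 other settings. Without w4 it was -0.40 (adjusted p = 0.83), without w8 -1.10 (adjusted p = 0.059) and with no library term -0.67 (adjusted p = 0.19).

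The calls of the members were set beside those of all genes tested. From Astro to RGL 3 of 6 were called, 1 higher and 2 lower, with 11.0% of all genes called and a median log2 change of 0.21 over all genes. From RGL to NPC 3 were called and all fell (31.6% of all genes), and from NPC to NB1 3 rose and 1 fell (31.4%). From NB1 to NB2 only Gabbr2 was called (3.07%), and from NB1 to GCimm1 4 rose (13.2%). GCimm1 to GCimm2 had 3 rises (9.89%), GCimm2 to GCyoung 1 rise and 1 fall (19.6%), GCyoung to GCmat1 no call (4.23%) and GCmat1 to GCmat2 2 falls (7.91%). With 6 genes these counts are descriptions.

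Between GCyoung and GCmat1, edgeR gave an unadjusted p under 0.05 for 1 member, Gabrg3, and DESeq2 called none. Gabrg3 was called there with total UMIs as scaling, with no filter on low counts and without w1. Between the ends of the path, RGL and GCmat1, 5 of 6 were called, 2 higher and 3 lower, beside 51.0% of all genes. The median log2 change of the members in that comparison was -0.52.

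**Figure D2:**
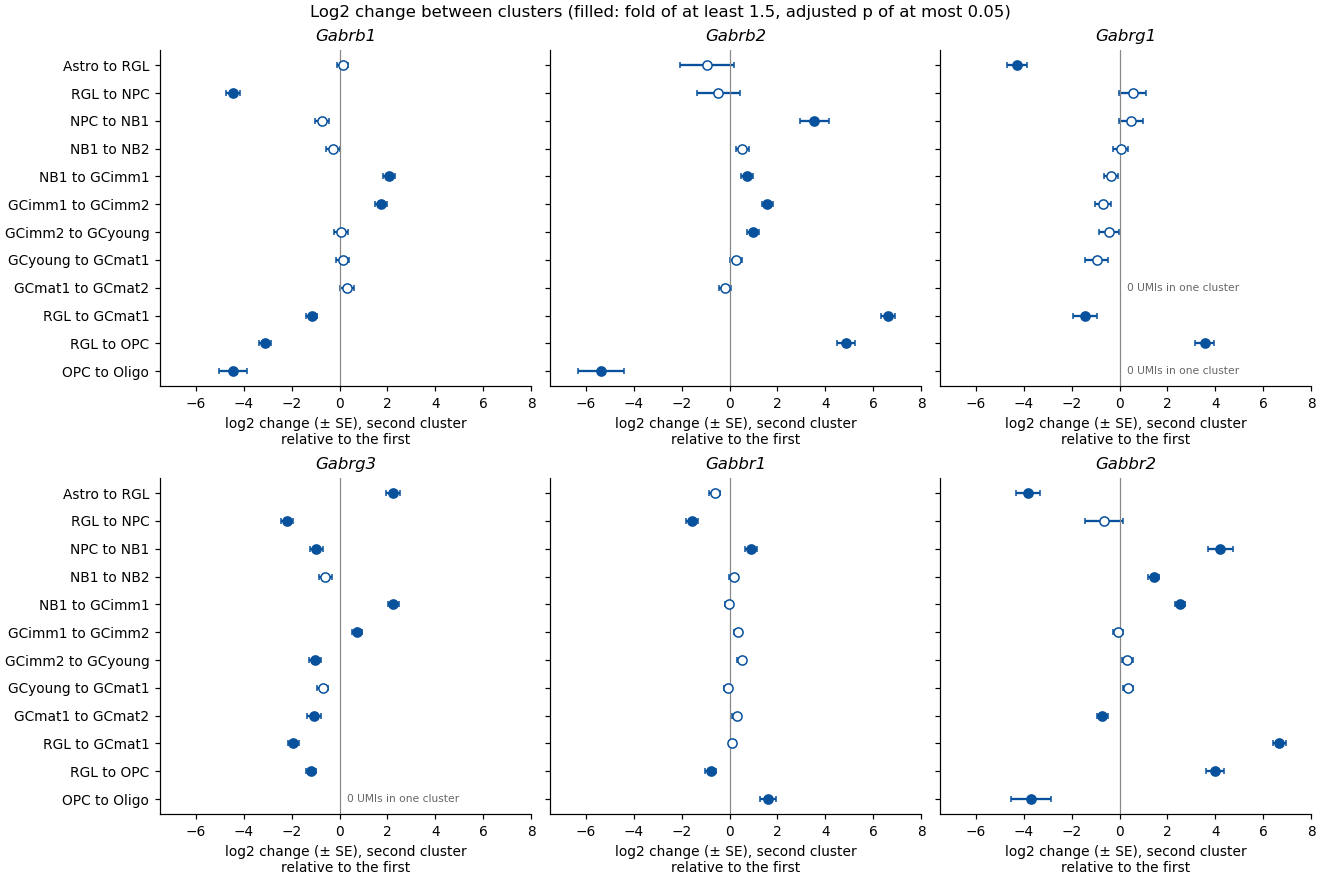
Log2 change of each gene (horizontal axis, second cluster relative to the first, with its SE) in the 12 comparisons (vertical axis), from the edgeR fit. Filled points passed a fold of 1.5 and an adjusted p of 0.05, and open points did not. Comparisons with 0 UMIs in a cluster are marked in words in place of a point. Gabrb2 and Gabbr2 rise from RGL to GCmat1 by 6.61 and 6.68, and Gabrb1 falls from RGL to NPC by 4.44.

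Genes of different length cannot be compared by CPM over introns and exons, so the balance of related subunits was followed as the share of a pair's UMIs, which compares clusters and not genes. Of the UMIs of Gabrb1 and Gabrb2, Gabrb2 made up 0.139% in RGL (exact binomial interval 0.0987 to 0.191%, counting error only) and 1.95% in NPC. The share was 29.4% in NB1 and 41.4% in NB2, where Gabrb1 was lowest on the path. It was 13.6% in GCimm1 and 13.7% in GCimm2, when Gabrb1 was higher again, and 23.2% in GCyoung and 24.6% in GCmat1. By library, the share was 32.6% in w1, 24.6% in w2 and 34.7% in w4 in NB1, and 38.8%, 51.6% and 25.0% in NB2, the last with 4 UMIs of Gabrb2. In GCimm1 it was 24.2% in w1 (interval 18.6 to 30.5%), 13.6% in w2 and 11.8% in w4. The share was thus higher in NB1 than in GCimm1 within each of the 3 libraries, but the w1 value of GCimm1 lay close to the w2 value of NB1, and in w1 the intervals of both clusters overlapped (30.0 to 35.4% in NB1).

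For the GABA-B pair, the share of Gabbr2 was higher in the granule cell clusters than in RGL and NPC. Pooled over libraries it was alike in GCimm1 and GCmat1, and GCmat2 had the lowest share of the granule cell clusters. Gabbr2 made up 5.29% of the pair's UMIs in RGL (interval 3.89 to 7.02%) and 9.26% in NPC (3.08 to 20.3%). In NB1 its share was 53.8% in w1, 52.2% in w2 and 44.0% in w4, and in NB2 70.6%, 71.2% and 81.5%. It was 86.5% in GCimm1 (85.8 to 87.3%), 83.2% in GCimm2 (82.0 to 84.4%), 82.8% in GCyoung (82.0 to 83.5%) and 86.7% in GCmat1. In GCmat2 it was lower, 77.7% (74.6 to 80.6%), with 70.1% in w4 and 80.1% in w8. The library values of NB1, NB2 and GCimm1 did not overlap, but the w4 share of NB2 rests on 27 UMIs and its interval (61.9 to 93.7%) holds the w4 share of GCimm1, 87.0%. Oligo nuclei had 2 UMIs of Gabbr2 and 50 of Gabbr1.

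Of the gamma pair, Gabrg3 made up 99.2% in RGL and 56.3% in Astro (interval 45.3 to 66.9%, counting error only). By library, the Astro share was 34.5% in w1, 70.0% in w2 and 64.3% in w4. The share of Gabrg3 was 76.6% in NB2 and 84.3% in NB1, where Gabrg3 was lowest on the path over all libraries. It was at least 97.9% in each granule cell cluster over all libraries (94.5% in w1 of GCimm1).

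**Figure D3:**
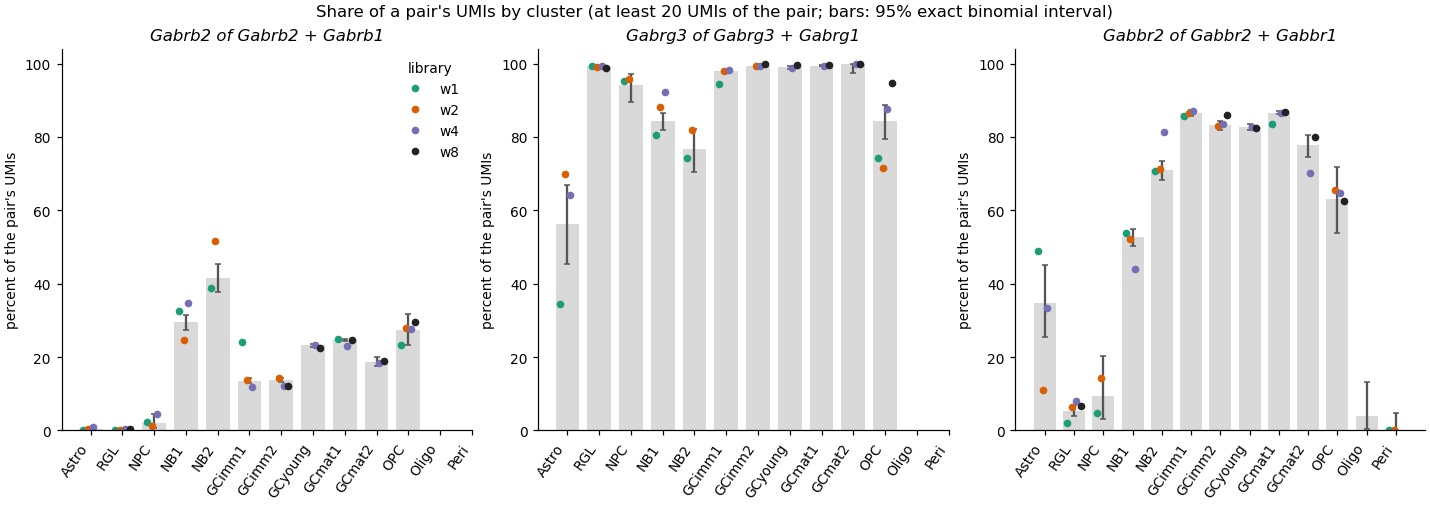
Percent of a pair's UMIs (vertical axis) that came from the first gene, by cluster (horizontal axis), for pairs with at least 20 UMIs. Bars are all nuclei of a cluster with exact 95% binomial intervals and points are libraries. The share of Gabbr2 goes from 5.29% in RGL through 52.7% in NB1 and 71.0% in NB2 to 86.5% in GCimm1, and is 77.7% in GCmat2.

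Per length of the gene body, which allows members to be set side by side with caution, Gabrb1 was highest in RGL at 909 CPM per 100 kb, and Gabbr1 followed at 453. Gabrg3 had 110.2 and the other 3 members had 6.44 or less. In GCmat1 Gabrb1 stood at 305, Gabbr1 at 289.8, Gabrb2 at 233, Gabbr2 at 166, Gabrg3 at 31.6 and Gabrg1 at 1.23 CPM per 100 kb. Reads of nuclei come from exons and introns in unknown parts, so this scale is rough.

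The authors' pseudo-time, an order of nuclei computed from expression in arbitrary units, resolved the turning points within clusters. In bins of width 2 over all libraries, Gabrb1 went from 4619 CPM at 0 to 2 through 1627 at 2 to 4 and 378 at 6 to 8 down to 86.1 at 10 to 12. It rose again from 198 at 14 to 16 to 1261 at 18 to 20 and 1834 at 20 to 22. Gabrg3 was at 291 CPM at 6 to 8 and 55.2 at 8 to 10, both bins with NPC as the commonest cluster, so much of its fall lay within NPC. It was at 7.80 CPM at 10 to 12, below the pooled level of any neuronal cluster, and at 200.5 at 14 to 16. Over all libraries both genes had their low point in the same bin, while in w4 Gabrb1 was lower at 12 to 14 (97.3 CPM) than at 10 to 12 (111). Clusters and pseudo-time were drawn from the same values, so this is a description.

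Gabbr2 had 4.02 CPM at 8 to 10, 84.5 at 10 to 12, 307 at 14 to 16 and 514 at 16 to 18. Gabrb2 had 4.02 CPM at 8 to 10, 26.3 at 10 to 12, 70.0 at 12 to 14, 78.0 at 16 to 18 and 316 at 20 to 22. Both left their low level in the same step, and Gabbr2 came close to its later level by 16 to 18, when Gabrb2 had not. Gabrg3 declined from 649.8 CPM at 20 to 22 to 150.4 at 28 to 30, and it was 235 at 30 to 32, the last bin. Gabbr1 lay between 76.9 and 97.0 CPM in every bin from 8 to 30 that had at least 20 nuclei. The bin from 22 to 24, between those of GCimm2 and GCyoung, had fewer nuclei and no value for any member.

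**Figure D4:**
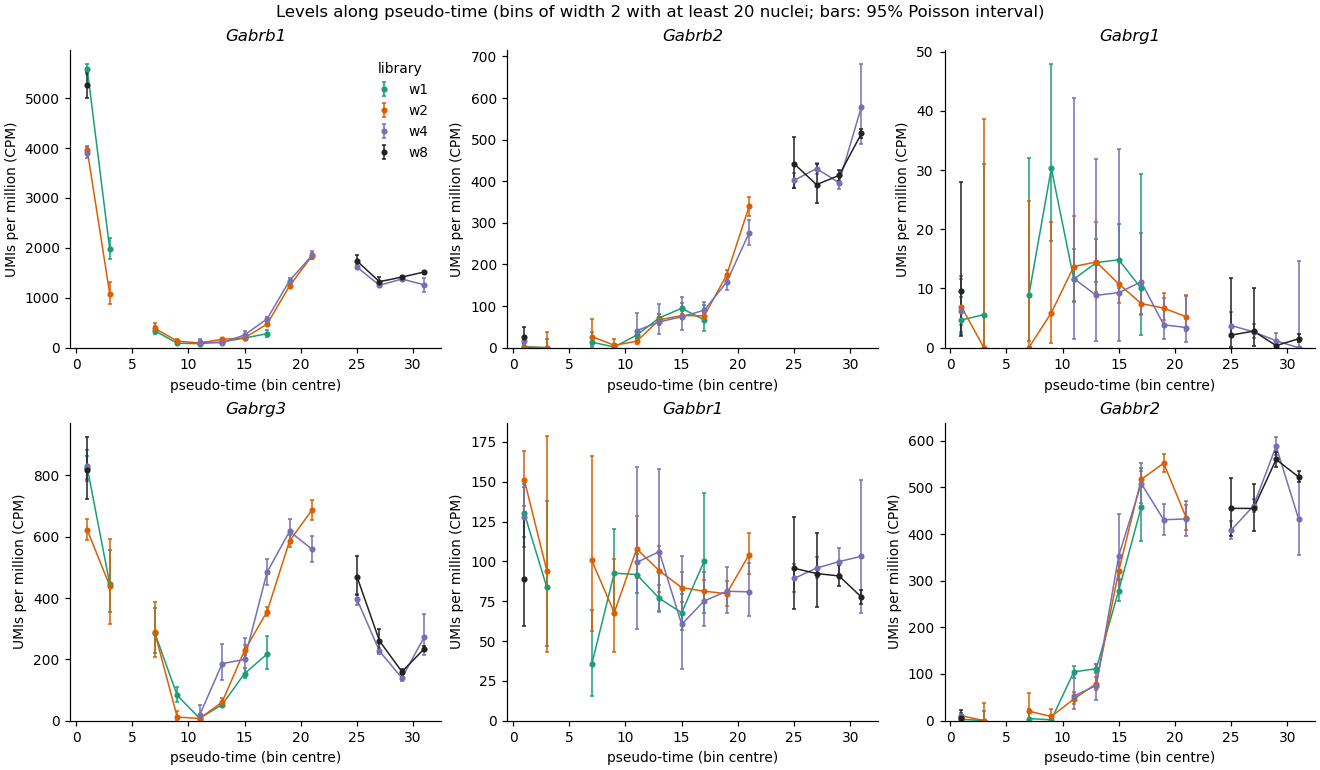
Level in CPM (vertical axis) along pseudo-time (horizontal axis, centre of bins of width 2 with at least 20 nuclei), with 1 colour per library and exact 95% Poisson intervals, and lines only between adjacent bins. Over all libraries Gabrb1 and Gabrg3 are lowest in the bin from 10 to 12, though in w4 Gabrb1 is lower in the next bin, and Gabbr2 is near its later level by 16 to 18, where Gabrb2 is not.

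Within the bin from 16 to 18, Gabrb1 was 281 CPM in w1 (48 nuclei), 473 in w2 and 576 in w4. Gabrg3 was 217, 356 and 484 CPM in the same libraries, the order of cohorts seen in GCimm1. At 18 to 20 w2 and w4 were closer, at 1237 and 1342 CPM for Gabrb1 and 586 and 618 for Gabrg3. With 1 pool per week these differences have no test.

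In the glia beside the path the members split by cell type. OPC, the dividing precursors that receive GABAergic synapses from interneurons, held UMIs of all 6 members. Gabrb2 was 161, 195, 163 and 189 CPM in OPC in w1, w2, w4 and w8, and Gabrg1 was 76.7, 82.7, 50.1 and 27.8. Gabbr2 was 69.0, 92.4, 138 and 139 CPM, and Gabrg3 was 222, 209, 357 and 490.1. All 4 libraries lay above RGL for Gabrb2, Gabrg1 and Gabbr2.

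Between RGL and OPC all 6 members were called, 3 higher and 3 lower, beside 29.7% of all genes. Gabrb2 was higher in OPC by 4.87 ± 0.37 (SE, log2, edgeR adjusted p = 1.3e-16), with 4.19 without w2 and 5.80 without w4. Gabbr2 was higher by 4.00 ± 0.38 (edgeR adjusted p = 2.5e-13) and Gabrg1 by 3.56 ± 0.40 (edgeR adjusted p = 1.1e-10). Gabrb1, at 529, 501, 426 and 451 CPM in OPC, was lower by a log2 change of -3.13 ± 0.24 (edgeR adjusted p = 2.0e-16).

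Gabrg3 in OPC was lower than in RGL by a log2 change of -1.19 ± 0.22 (SE, edgeR adjusted p = 1.2e-05), in 4 of 4 libraries. It was not called in female nuclei alone (-1.08). Gabbr1 had 53.7, 48.7, 75.1 and 83.5 CPM in OPC, a change of -0.79 ± 0.24 (edgeR adjusted p = 0.0068). That call was lost without w2 (-0.58, edgeR adjusted p = 0.15) and in female nuclei alone (-1.72). Only w2 had enough female OPC nuclei for a sum. In OPC the later libraries w4 and w8 had more Gabrg3 and Gabbr2 and less Gabrg1 than w1 and w2, from 5 to 17 UMIs of Gabrg1 per library.

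Oligo nuclei were nearly without 5 of the 6. Gabrg1 and Gabrg3 had no UMI in 45 nuclei, where a count of 0 allows up to 13.7 CPM and a share of up to 6.67% of nuclei with a UMI. Against OPC, Gabrg3 was at least 23.5-fold lower and Gabrg1 at least 4.34-fold lower, with 3 counts over the Oligo nuclei as the limit. Gabrb1 was 37.5, 39.4 and 0 CPM in w2, w4 and w8, a log2 change of -4.46 ± 0.59 (SE, edgeR adjusted p = 1.5e-08), or -5.24 without w4. Gabrb2, with 1 UMI in Oligo, changed by -5.38 ± 0.97 (edgeR adjusted p = 1.3e-05), and without w8, which held that UMI, none was left. Gabbr2, with 2 UMIs, both in w4, changed by -3.71 ± 0.84 (edgeR adjusted p = 5.5e-04), or -3.02 without w8, and without w4 none was left.

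Gabbr1 moved the other way, at 356, 210.3 and 149.8 CPM in Oligo in w2, w4 and w8, above every OPC library. It was higher by 1.60 ± 0.33 (SE, log2, edgeR adjusted p = 1.3e-04), and by 1.07 without w2, which was not called (adjusted p = 0.071). In all, 6 of 6 members were called from OPC to Oligo, 1 higher and 5 lower, beside 20.0% of all genes, whose median log2 change was -0.43. The call of Gabrg1 (adjusted p = 5.5e-04) was lost after thinning (adjusted p = 0.052) and in male nuclei alone (adjusted p = 0.068).

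Markers of interneurons, neurons that make GABA, were counted beside these values, over a list of 8 genes. Their sum was 3406 to 4558 CPM in OPC libraries and 3282 to 4521 in Oligo libraries, of which Erbb4 was 3826 and 3906 CPM in the pooled clusters. Gad1, an enzyme of GABA synthesis, was 69.6 CPM in OPC and 4.55 in Oligo, against 89.6 in GCimm1, 70.9 in GCimm2, 53.1 in GCyoung and 39.0 in GCmat1, so OPC lay within the range of the granule cell clusters. Lhx6 and Vip had no UMI in OPC or Oligo, and Slc32a1, the vesicular GABA transporter, had none in OPC and 1 in Oligo. Gad2 was 5.92 CPM in OPC (4 UMIs), above 3.40 in GCimm1 and below 10.5 in NB1, with no UMI in Oligo. Sst had 1 UMI in OPC and 1 in Oligo, and Pvalb had 1 in OPC and none in Oligo. In the clusters from RGL to GCmat2 the sum of the list lay between 18.1 and 139.9 CPM per library. The part of other cells in the members' levels was not tested.

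In Astro the GABA-B pair was read at 184, 214 and 173 CPM for Gabbr1 and at 176, 26.7 and 86.7 for Gabbr2 in w1, w2 and w4. The Gabbr2 values differed between libraries and rest on 34 UMIs. RGL had less Gabbr2 by a log2 change of -3.83 ± 0.49 (SE, edgeR adjusted p = 2.0e-08), which was -2.33 without w1 and -4.53 without w2. For Gabbr1 the change of -0.61 ± 0.23 (adjusted p = 0.078) was not called. The 2 clusters thus differed by called changes in Gabrg1, Gabrg3 and Gabbr2 and not in the other 3 members.

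The cluster labelled Peri had 326 and 207 CPM of Gabbr1 in w1 and w2 and no UMI of Gabrb2, Gabrg1 or Gabbr2 in 60 nuclei. A count of 0 there allows up to 9.48 CPM.

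Of the 2927 GCmat1 nuclei of w8, 216 had no pseudo-time. The authors left GCmat1 nuclei that strongly expressed ventral genes out of their pseudo-time, and ventral genes were not examined here. The 216 nuclei had 369.8 CPM of Gabrg3 (Poisson interval 346 to 395), against 208 (202 to 214) in the other 2711. Gabrb2 was 655 against 478 and Gabrb1 was 1724 against 1483 CPM, while Gabbr1 was 84.2 against 82.1. The intervals cover counting error within 1 pool, so no test was made.

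Other genes of the pathway were counted from 4 lists, chosen with earlier results of these data known, of which 47 of 49 genes had a feature. Of 15 other GABA-A subunits, 9 passed the filter. Between RGL and GCmat1, 7 of these were higher and none lower, with a median log2 change of 3.87 beside -0.02 for all genes, of which 51.0% were called. Gabra2, an alpha subunit of early receptors, rose by 3.25 ± 0.21 (SE, log2, edgeR adjusted p = 3.4e-20).

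At the neuroblast step, from NPC to NB1, 4 of 9 other subunits were higher beside 31.4% of all genes called, among them Gabra2 (4.16 ± 0.31, edgeR adjusted p = 2.3e-16). At that step Gabrb2 also rose, and Gabrg3 fell. From GCimm2 to GCyoung, 3 of 9 were higher (19.6% of all genes called), with Gabra4, a partner of the delta subunit in granule cells, at 1.67 ± 0.21 (edgeR adjusted p = 6.6e-09). In OPC, Gabra3 was read at 118.5 CPM against 0.164 in RGL.

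Of 11 GABA-B partners and effectors, 7 passed the filter. Between RGL and GCmat1 5 were higher and none lower (median log2 change 3.67, with 51.0% of all genes called). Kcnj6, a subunit of the potassium channels that GABA-B receptors open, had the largest rise at 7.21 ± 0.29 (SE, log2, edgeR adjusted p = 1.1e-28), from 6.72 to 792 CPM. From GCimm2 to GCyoung, where neither Gabbr1 nor Gabbr2 was called, 6 of the 7 rose and 1 fell, beside 19.6% of all genes called.

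At that step the auxiliary subunits of the receptor went opposite ways. Kctd16 rose by 2.09 ± 0.25 (SE, log2, edgeR adjusted p = 1.3e-09), and Kctd8 changed by -2.30 ± 0.25 (edgeR adjusted p = 8.2e-11). Kctd8 was 114 CPM in GCimm1, 187 in GCimm2, 34.1 in GCyoung and 2.84 in GCmat1, and Kctd16 was 145, 391, 1339 and 1665 in the same clusters.

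At the step from NB1 to GCimm1, where 4 members rose, 2 of 9 other GABA-A subunits were higher (13.2% of all genes called), led by Gabra5, an alpha subunit of extrasynaptic receptors, at 2.27 ± 0.18 (SE, log2, edgeR adjusted p = 2.6e-15). Of the GABA-B partners 4 were higher and 1 lower there, and Kctd8 led them at 3.74 ± 0.26 (edgeR adjusted p = 1.2e-16). From RGL to NPC, where 3 members fell, 1 of 9 other subunits was higher and 2 were lower, and 2 of 7 GABA-B partners were lower, shares near the 31.6% of all genes called. From RGL to OPC 3 other subunits and 3 partners were higher and 1 subunit was lower, beside 29.7% of all genes called. Gabra2 and Kctd16 are named here after their values were seen.

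Of the 13 genes of inhibitory synapses and receptor assembly that were tested, from RGL to GCmat1 5 were higher and 1 lower (51.0% of all genes called), with a median log2 change of 0.22. Shisa7, an auxiliary subunit of GABA-A receptors, had the largest rise, 5.03 ± 0.37 (SE, log2, edgeR adjusted p = 2.6e-17). Gphn, the scaffold gephyrin, was called only between Astro and RGL (-0.62 ± 0.18, edgeR adjusted p = 0.014) of the 12 comparisons. Of 6 tested genes of GABA uptake, synthesis and turnover, 1 was higher and 3 lower in the same comparison (51.0% of all genes called), led by the GABA transporter Slc6a11 at -3.39 ± 0.25 (edgeR adjusted p = 2.8e-17).

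The genes most like each member were found by Pearson's r of log2(CPM + 1) over the 38 sums, which share 4 libraries and 13 clusters, so r is a description. For Gabrb1 they were Ntrk2 (0.91), Trim9 (0.87) and Adcy2 (0.86), and for Gabrg3 Fut9 (0.88), Gm21954 (0.86) and Med12l (0.86). For Gabrb2 they were Ryr3 (0.93), Mmp16 (0.92) and Scn1a (0.91), and for Gabbr2 Cadm2 (0.92), Grm5 (0.91) and Arpp21 (0.89). Gabrg1 was most like Pou3f2 (0.88), Ankrd29 (0.86) and Igsf21 (0.83), and Gabbr1 most like Aldh1a1 (0.80), Olfml1 (0.80) and Malat1 (0.78).

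Between members, r was highest for Gabrb1 with Gabrg3 (0.80) and Gabrb2 with Gabbr2 (0.79). The dimer partners Gabbr1 and Gabbr2 had r = -0.38.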

How the data were processed

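Single-nucleus RNA-seq (10x 3′ v3.1) was made from 4 libraries. Per the labels, reads were aligned to mm10 with STARsolo 2.7.4a, and the authors counted exonic and intronic UMIs together; the deposited files are raw counts per barcode and feature. The authors then removed doublets, low-quality nuclei, small graph components and a group of week-4 nuclei, mostly with male expression, taken as a possible outlier animal. They divided counts by size factors and deposited log2 values (plus 1) for 13353 genes with each nucleus's cluster and pseudo-time. From that log2 table only the kept barcodes, clusters, pseudo-time and gene set were used. Whether counting used the strand is not given in the sources used here. All levels and tests used raw counts of the 14367 kept nuclei, and no further doublet step was run.

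UMIs were summed per library and cluster of at least 10 nuclei (38 sums) and tested with edgeR 4.0.16 (filterByExpr, TMM, quasi-likelihood, cluster and library as terms, 22 residual degrees of freedom) in R 4.3.3, with Benjamini-Hochberg adjustment over 11548 genes, in 12 comparisons. The SE is the log2 change divided by the square root of F. The library term pairs clusters of the same pool, as the labels give 1 library per week and the authors' methods state pooling per time point. The script was tested on simulated data. DESeq2 1.42.0, RLE factors, no filter, at least 20 nuclei, path and astrocytes only, no library term, thinning to 2000 UMIs (141 nuclei were shallower), 1 sex only (sex called per nucleus in the files) and leaving out each library were alternatives, and total UMIs as the only scaling was added after seeing the data. Intervals of CPM (Poisson) and shares (binomial) are exact 95% limits and, like the limit of 3 counts for a count of 0, cover counting error only. CPM intervals assume UMIs to be independent.

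The genes and the lists of related genes were chosen with earlier results of these data known. Related genes are mostly named where they had the largest fold of their list in a comparison. Gabra2 from RGL to GCmat1, Kctd16 and Gphn, among others, are named outside this rule. Similar genes are the 3 with the highest Pearson's r per member. Values of some related genes are not reported here.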

Additional observations from a re-analysis of the deposited data

How the results depend on the processing

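No called change of a member turned its direction in any of 14 other settings. Over all comparisons and settings, 477 values of called changes kept the call and 45 lost it, and of changes not called 450 stayed so and 12 gained a call. Apart from the values given above, Gabbr1 from Astro to RGL gained one with RLE factors and with DESeq2 (both -0.77), and Gabrg1 from GCimm1 to GCimm2 after thinning (-1.99). Without the replicate block (no library term), the calls lost among members were those of Gabrb2 from NB1 to GCimm1, of Gabrg3 from GCimm2 to GCyoung and from GCmat1 to GCmat2 and of Gabbr2 from GCmat1 to GCmat2, and no other call of a member changed.

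Leaving out 1 library gave 828 to 1363 genes from Astro to RGL (1269 with all), 2697 to 3731 from RGL to NPC (3654), 2534 to 3722 from NPC to NB1 (3630) and 120 to 361 from NB1 to NB2 (355, lowest without w1). It gave 812 to 1572 from NB1 to GCimm1 (1528, lowest without w2), 430 to 1166 from GCimm1 to GCimm2 (1142, lowest without w2) and 522 to 2430 from GCimm2 to GCyoung (2268, lowest without w4). It gave 166 to 562 from GCyoung to GCmat1 (489), 349 to 1072 from GCmat1 to GCmat2 (913), 4729 to 6036 from RGL to GCmat1 (5888), 2888 to 3152 from RGL to OPC (3433) and 1700 to 2253 from OPC to Oligo (2304).

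Thinning gave 691 genes from Astro to RGL, 2388 from RGL to NPC, 256 from GCyoung to GCmat1, 449 from GCmat1 to GCmat2 and 1374 from OPC to Oligo. DESeq2 gave 169 from NB1 to NB2, 735 from GCimm1 to GCimm2 and 221 from GCyoung to GCmat1, and the fit without the replicate block gave 200 from NB1 to NB2. Nuclei called male alone gave 331 from Astro to RGL, 176 from NB1 to NB2, 945 from NB1 to GCimm1, 499 from GCimm1 to GCimm2, 1271 from GCimm2 to GCyoung, 205 from GCyoung to GCmat1, 354 from GCmat1 to GCmat2 and 1474 from OPC to Oligo. Nuclei called female alone gave 2021 from RGL to NPC, 2404 from NPC to NB1, 60 from NB1 to NB2, 274 from GCyoung to GCmat1, 406 from GCmat1 to GCmat2 and 1248 from RGL to OPC. The other 132 counts were within 1.5 times those reported. Fewer nuclei, UMIs or libraries entered several of these fits, and otherwise the cause was not tested.

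The share of higher genes among those called depended on scaling. From RGL to GCmat1 it was 47.9%, and 26.6% with total UMIs. The median log2 change of all genes moved by over 0.1 with total UMIs in several comparisons, to -0.53 there and to 0.24 from RGL to NPC. With total UMIs it was 66.3% against 46.8% from RGL to NPC, 34.0% against 49.1% from NPC to NB1, 47.2% against 60.7% from NB1 to GCimm1, 43.7% against 68.6% from GCimm1 to GCimm2 and 26.2% against 47.6% from GCimm2 to GCyoung. With DESeq2 it was 26.5% against 46.8% from Astro to RGL (34.3% with RLE factors), 79.3% against 62.5% from NB1 to NB2, 36.4% against 47.6% from GCimm2 to GCyoung, 24.0% against 40.3% from GCyoung to GCmat1, 59.8% against 48.7% from RGL to OPC and 54.0% against 44.0% from GCmat1 to GCmat2. Oligo could not be tested with at least 20 nuclei per sum or in female nuclei alone, and OPC and Oligo were not in the fit of path and astrocytes. Equal weight of libraries moved none of 78 levels beyond the spread between libraries, leaving out w1, w2, w4 or w8 moved 4, 2, 5 and 7, thinning moved 7, and counting CPM over the genes of the deposited table, a smaller total, moved 58. Shares of nuclei with a UMI after thinning moved in 63 of 78 cases. Small clusters limit the values of Astro, NPC, OPC and Oligo, and 1 pool per week limits every comparison of cohorts.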
